A study of Mus musculus with 11 samples.

Results

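Respiratory complex I was followed through adipocyte differentiation and Tmem120 depletion by the array probes of its nuclear-encoded subunits. Members were all genes whose symbol reads Nduf followed by a, b, c, s or v and a number, together with Ndufab1, and the assembly factors named Ndufaf were left out. This gave 36 of the 19057 genes on the array, measured by 55 of 45281 probes, with the brightest probe standing for each gene and the others kept as a check. Of the 36, 34 encode subunits of the complex. Ndufa4 is now counted with cytochrome c oxidase and Ndufs5-ps is a pseudogene, so both are described apart. The signal of 35 of the 36 genes exceeded background in at least one of the groups, and Ndufs1 stayed at background in all 5 groups.

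Complex I is the largest enzyme of the mitochondrial respiratory chain. It takes electrons from NADH, passes them along a chain of iron-sulfur clusters in its matrix arm to ubiquinone, and uses the energy to pump protons through its membrane arm. The conserved core carries the chemistry and includes membrane subunits encoded by mitochondrial DNA, while accessory subunits around it are needed for assembly and stability. White adipocytes build up mitochondria as they differentiate, and these feed lipid synthesis as well as ATP production.

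RNA of 3T3-L1, a line of mouse fibroblasts that a hormonal cocktail turns into adipocytes, was hybridised to 11 Illumina bead arrays in 5 groups. There were 2 arrays of cells with a Tmem120a shRNA, 2 with a Tmem120b shRNA and 2 with both, which is the double knockdown, all differentiated, then 3 of control adipocytes carrying a non-target shRNA and 2 of undifferentiated preadipocytes at day 0, also carrying the non-target shRNA. All 5 groups thus held lentiviral shRNA. Sample labels date the differentiated cells to day 9, but day 6 is given in the series description and the methods, a discrepancy that could not be resolved. The knockdowns were stable shRNA lines, and the number of lines behind a group is not given, so line differences and depletion cannot be told apart. Tmem120a and Tmem120b encode related nuclear envelope transmembrane proteins enriched in fat, and the question was which genes of adipogenesis change when they are depleted. The methods call the replicates biological, while the labels do not say whether they came from separate cultures, and without separate cultures the p-values would reflect technical spread between arrays only.

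The arrays of each group agreed closely, with correlations of 0.995 to 0.998 across probes. Before normalisation, median log2 signals were 6.58 to 6.71 on the 6 knockdown arrays and 6.75 to 7.1 on the 5 others. A shift common to all knockdown arrays therefore cannot be told apart from depletion. Tmem120a stood at 39.9% of control in its own knockdown and 45.9% in the double knockdown, and Tmem120b at 23.8% and 32.5%. All 8 adipocyte markers examined were above background in the 3 knockdown groups and in control adipocytes, against 2 of 8 in preadipocytes. Their summed log2 signal was 94.1 to 95.1 in the Tmem120a knockdown, 90.3 to 91.5 in the Tmem120b knockdown, 91.2 to 91.3 in the double knockdown and 92.6 to 92.7 in control adipocytes. Among these markers the glucose transporter gene Slc2a4 was lower in all 3 knockdowns, with log2 changes of -0.61, -1.48 and -1.49 in the Tmem120a, Tmem120b and double knockdowns. Fabp4, which encodes a fatty acid carrier, was higher in the Tmem120a and Tmem120b knockdowns (1.08 and 0.70). Its only probe averaged 7.36 in control adipocytes, near the background limit of 6.86, so it read this gene weakly. All 4 preadipocyte markers measured were above background in every group, with summed log2 signals of 47.5 to 47.8 in the Tmem120a knockdown, 49.8 to 49.9 in the Tmem120b knockdown, 48.9 to 50.2 in the double knockdown and 48.3 to 48.4 in control adipocytes. In preadipocytes themselves the sum was 48.9 to 49.5, below that of the Tmem120b knockdown. Col1a1 and Pdgfra averaged higher in control adipocytes (12.48 and 10.88) than in preadipocytes (12.05 and 10.51), and Dlk1 and Thy1 lower. The sum therefore separates these cell states poorly. Against control adipocytes, Thy1 was higher in the Tmem120b and double knockdowns (0.59 and 0.54) and Pdgfra in the Tmem120b knockdown (0.66). The part of these marker differences in the members' changes was not tested. At most 1 marker of each of the macrophage, endothelial and muscle lists passed background in any group. These are bulk samples, in which fewer cells of a type and less RNA per cell cannot be told apart.

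Differentiation raised most of the complex. Control adipocytes were set against preadipocytes with limma over all 11 arrays, and a gene was called when its adjusted p was 0.05 or less and its log2 change at least 0.5, which is 1.41-fold. Of the 36 members 27 were higher and 0 were lower, while 11.9% of all genes were called higher and 11.1% lower. Without the fold limit 32 were higher and 1 lower, as they also were at an unadjusted p under 0.05. The median log2 change of the members was 0.84, beside 0.0009 for all genes, and 35 of the 36 estimates were positive.

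The rise reached every region of the enzyme. Of the core subunits measured, 5 of 6 were higher, among them Ndufv1, which binds NADH and the flavin, with a log2 change of 1.01 ± 0.0827 (SE), and Ndufs7, which carries the last iron-sulfur cluster before ubiquinone, with 1.25 ± 0.0986. In the distal membrane arm 10 of 11 were higher. The proximal membrane arm had 6 of 8 higher and the matrix arm accessory subunits 5 of 9, so the counts ran from 5 of 9 to 10 of 11 across regions, a difference that was not itself tested. Ndufa4 was not called, with a log2 change of 0.50 just under the limit, and Ndufs5-ps was higher by 1.31. Its probe was not mapped to the genome here, so signal from the pseudogene and from its parent gene cannot be told apart.

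Ndufv3, a small accessory subunit of the NADH-binding module, changed most. It had log2 signals of 13.02, 13.00 and 12.94 in control adipocytes and 11.20 and 10.95 in preadipocytes, a 3.76-fold rise (adjusted p = 2.64e-09, limma). The groups lay far apart. Ndufb9, a distal arm subunit of the LYR protein family, followed with 11.26, 11.17 and 11.25 in control adipocytes against 9.84 and 9.69 in preadipocytes, or 2.75-fold (adjusted p = 4.21e-07). Ndufa6, the LYR protein of the matrix arm, had 12.80, 12.75 and 12.88 in control adipocytes against 11.55 and 11.25 in preadipocytes, or 2.65-fold (adjusted p = 1.68e-06). Ndufab1, the mitochondrial acyl carrier protein to which both LYR subunits bind, was higher by 1.16 ± 0.0719.

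At the other end were genes with little or no change. Ndufb11, an X-linked distal arm subunit, was the only member with a negative estimate, with 7.21, 7.07 and 7.14 in control adipocytes against 7.37 and 7.35 in preadipocytes (log2 change -0.22 ± 0.0676 SE, adjusted p = 0.0290), which is short of the fold limit. Ndufa5, an accessory subunit near the ubiquinone-binding module, had 12.02, 11.88 and 12.02 in control adipocytes against 12.14 and 11.60 in preadipocytes (adjusted p = 0.808), and the groups overlapped. Ndufs1, the largest core subunit, had 6.69, 6.71 and 6.51 in control adipocytes against 6.66 and 6.55 in preadipocytes, all at background, so its probe gives no fold.

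**Figure D1:**
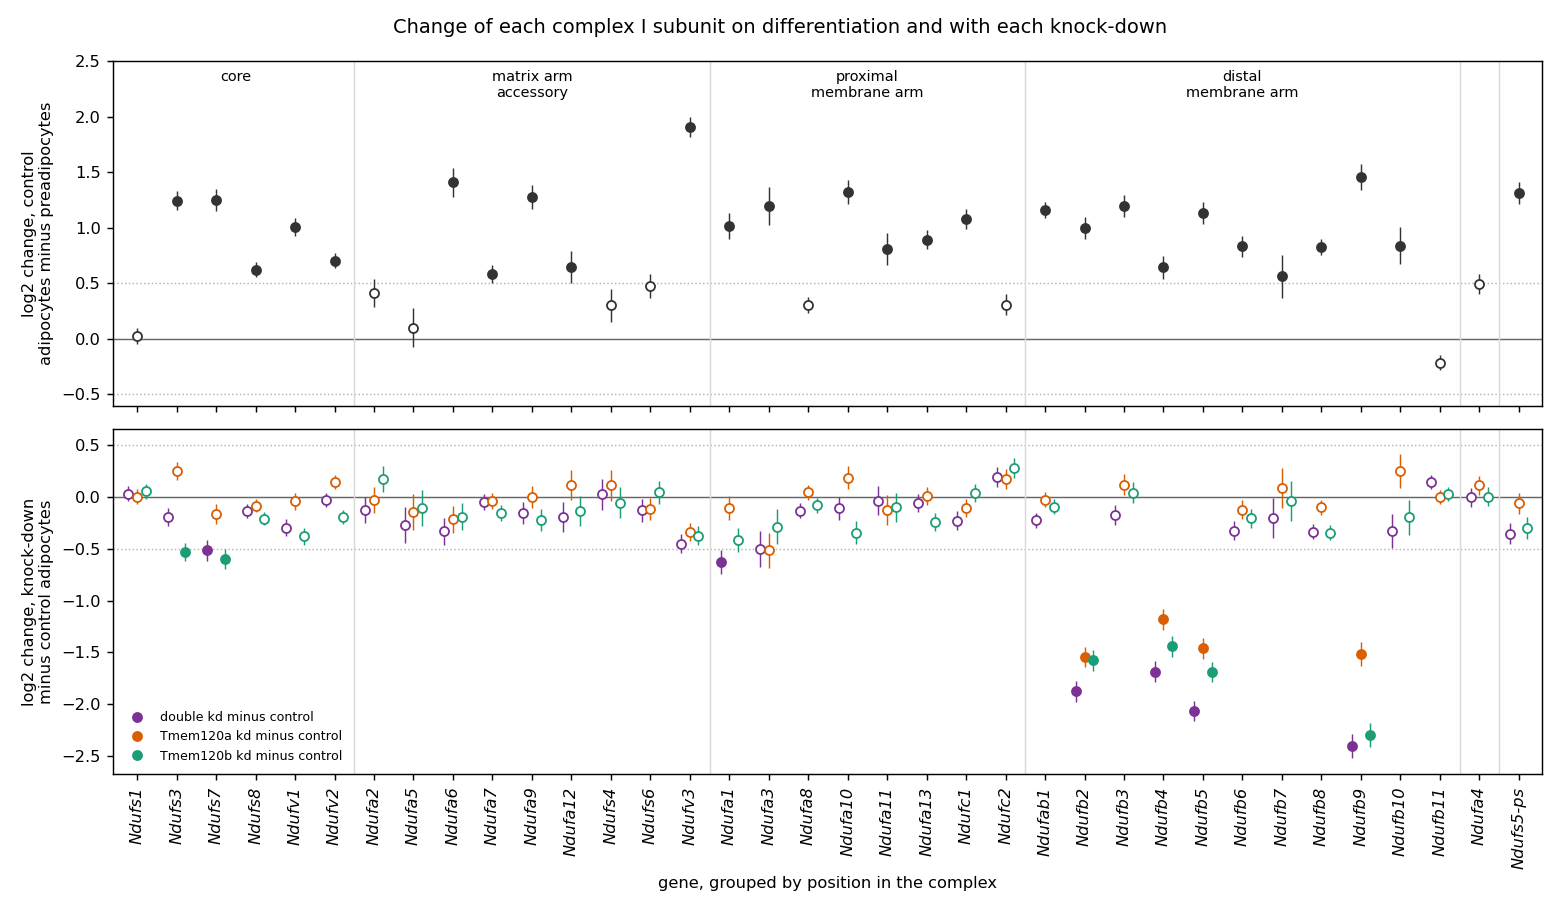
Log2 change of each of the 36 members, with its standard error, grouped by position in the complex; the upper panel shows control adipocytes minus preadipocytes and the lower panel each knockdown minus control adipocytes, with filled points for called changes and dotted lines at 0.5 and -0.5. In the upper panel 27 genes are filled and high, whereas in the lower panel Ndufb2, Ndufb4, Ndufb5 and Ndufb9 stand below -1 in all 3 knockdowns.

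The knockdowns were then each compared with control adipocytes. In the Tmem120a knockdown 4 of 36 members were lower and 0 higher, beside 2.32% of all genes lower and 0.829% higher. The Tmem120b knockdown had 6 lower and 0 higher, beside 4.04% and 3.83%, and the double knockdown 6 lower and 0 higher, beside 3.96% and 3.29%. These shares include genes at background, whereas 35 of the 36 members were above it. Members lower made up 11.1%, 16.7% and 16.7%. Of all probes above background in control adipocytes, 4.89%, 8.18% and 7.99% were lower in the Tmem120a, Tmem120b and double knockdowns. At a control signal of 11 to 12 these shares were 8.31%, 12.9% and 12.7%. At an unadjusted p under 0.05, 6, 16 and 16 members were lower and 1, 1 and 0 higher in the Tmem120a, Tmem120b and double knockdowns. The share of all genes at this unadjusted limit was not taken. Median log2 changes of the members were small, at -0.04, -0.19 and -0.20 in that order, beside 0.01 to 0.02 for all genes. Leaving out 1 of the 2 Tmem120b knockdown arrays gave -0.34 (without replicate 1) or -0.0662 (without replicate 2) for that knockdown. When arrays were only shifted to a common median, the counts of lower members were 11, 16 and 11, and the share of all genes called was not taken in this setting. The members' medians were then -0.46, -0.51 and -0.46, beside -0.08, -0.03 and -0.02 for all genes.

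Ndufb2, Ndufb4, Ndufb5 and Ndufb9 were the 4 genes lower in every knockdown, and all encode accessory subunits of the distal membrane arm, which pumps protons far from the NADH site. The remaining 32 members had median changes of -0.03, -0.17 and -0.18 in the Tmem120a, Tmem120b and double knockdowns. Each of the 4 genes had only 1 probe above background, so no second probe could be set beside the result; the other Ndufb2 probe was at background in all groups, with log2 changes of 0.09, 0.07 and 0.04.

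Ndufb9 (probe ILMN_2605004) fell furthest of the members in the Tmem120b and double knockdowns, and in the Tmem120a knockdown it was close behind Ndufb2. Its log2 signals were 9.73 and 9.70 in the Tmem120a knockdown, 9.12 and 8.74 in the Tmem120b knockdown and 8.62 and 9.02 in the double knockdown, against 11.26, 11.17 and 11.25 in control adipocytes. This was 35.0%, 20.3% and 18.9% of control (adjusted p = 7.19e-06, 9.29e-08 and 7.12e-08, limma). No knockdown array came within 1 log2 unit of a control array.

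Ndufb5 (probe ILMN_2617335), a distal arm subunit with a single membrane-spanning helix, had 8.96 and 9.10 in the Tmem120a knockdown, 8.94 and 8.67 in the Tmem120b knockdown and 8.40 and 8.45 in the double knockdown, against 10.69, 10.37 and 10.42 in control adipocytes. It was thus at 36.3%, 31.0% and 23.9% of control (adjusted p = 2.89e-06, 2.69e-07 and 6.65e-08). The double knockdown held the lowest values.

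Ndufb2 (probe ILMN_2636435), another small membrane subunit of this arm, had 8.11 and 8.13 in the Tmem120a knockdown, 8.13 and 8.05 in the Tmem120b knockdown and 7.96 and 7.62 in the double knockdown, against 9.72, 9.79 and 9.50 in control adipocytes. Its signal was 34.3%, 33.5% and 27.2% of control (adjusted p = 2.08e-06, 4.63e-07 and 1.42e-07). The single knockdowns overlapped each other and both lay below all control arrays.

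Ndufb4 (probe ILMN_1227012), a further accessory subunit of this arm, had 7.51 and 7.58 in the Tmem120a knockdown, 7.39 and 7.19 in the Tmem120b knockdown and 7.13 and 6.95 in the double knockdown, against 8.89, 8.54 and 8.76 in control adipocytes. It stood at 44.1%, 36.8% and 31.1% of control (adjusted p = 1.51e-05, 9.61e-07 and 3.08e-07). On the double knockdown arrays it was close to the background limit of 6.86. The calls of all 4 genes held in every alternative that used these probes, including each array left out in turn.

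**Figure D2:**
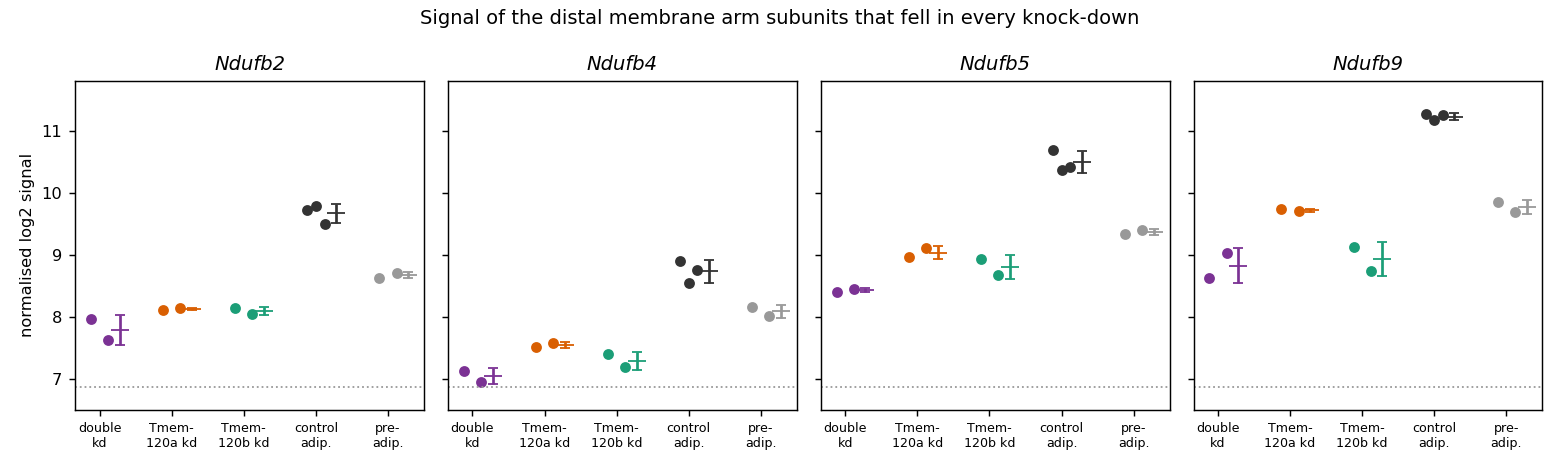
Normalised log2 signal of Ndufb2, Ndufb4, Ndufb5 and Ndufb9 on each array (points), with the mean and SD of each group beside them and the background limit dotted. All 6 knockdown arrays lie below the 3 control adipocyte arrays for each gene, and the double knockdown lies below the preadipocytes.

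The other 7 measured distal arm subunits were not called on their brightest probe in any knockdown. Ndufb3 had log2 changes of 0.12, 0.04 and -0.17 in the Tmem120a, Tmem120b and double knockdowns. Ndufb8 had -0.10, -0.34 and -0.34, where the Tmem120b and double knockdown changes passed the adjusted p but not the fold limit. The acyl carrier protein Ndufab1 had -0.03, -0.10 and -0.23. Within this arm, 4 of 11 subunits were therefore lower in each knockdown and 0 higher.

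In the rest of the complex the called changes were smaller and differed between groups. Ndufs3, a core subunit beside the ubiquinone module, had log2 signals of 12.96 and 13.04 in the Tmem120a knockdown, 12.20 and 12.24 in the Tmem120b knockdown and 12.42 and 12.70 in the double knockdown, against 12.85, 12.62 and 12.79 in control adipocytes. It was lower in the Tmem120b knockdown (log2 change -0.54 ± 0.0866 SE, adjusted p = 8.24e-04), while the Tmem120a arrays lay above all controls without being called (adjusted p = 0.114). Leaving out control adipocyte replicate 1 brought the Tmem120b change to -0.48, inside the fold limit.

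Ndufs7, the core subunit next to the ubiquinone site, had 12.25 and 12.44 in the Tmem120a knockdown, 12.04 and 11.79 in the Tmem120b knockdown and 12.03 and 11.96 in the double knockdown, against 12.61, 12.32 and 12.61 in control adipocytes. It was lower in the Tmem120b (-0.60 ± 0.0986, adjusted p = 9.50e-04) and double knockdowns (-0.52 ± 0.0986, adjusted p = 0.00289). Neither call was firm. The first became -0.48 without Tmem120b replicate 2, and the second -0.47 to -0.48 without control replicate 1, control replicate 3 or double knockdown replicate 2, all inside the fold limit.

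Ndufa1, a short X-linked membrane subunit of the proximal arm, had 13.06 and 12.90 in the Tmem120a knockdown, 12.80 and 12.53 in the Tmem120b knockdown and 12.58 and 12.34 in the double knockdown, against 13.22, 13.07 and 12.96 in control adipocytes. Only the double knockdown was called lower (-0.63 ± 0.116, adjusted p = 0.00245), and its arrays did not overlap the controls. In the Tmem120b knockdown it had -0.42 ± 0.116 (adjusted p = 0.0291), inside the fold limit. Of the 9 matrix arm accessory subunits none was called on its brightest probe, although Ndufv3 had -0.34, -0.37 and -0.45 in the Tmem120a, Tmem120b and double knockdowns with adjusted p of 0.0385, 0.0128 and 0.00408. Ndufa4 and Ndufs5-ps were not called in any knockdown.

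**Figure D3:**
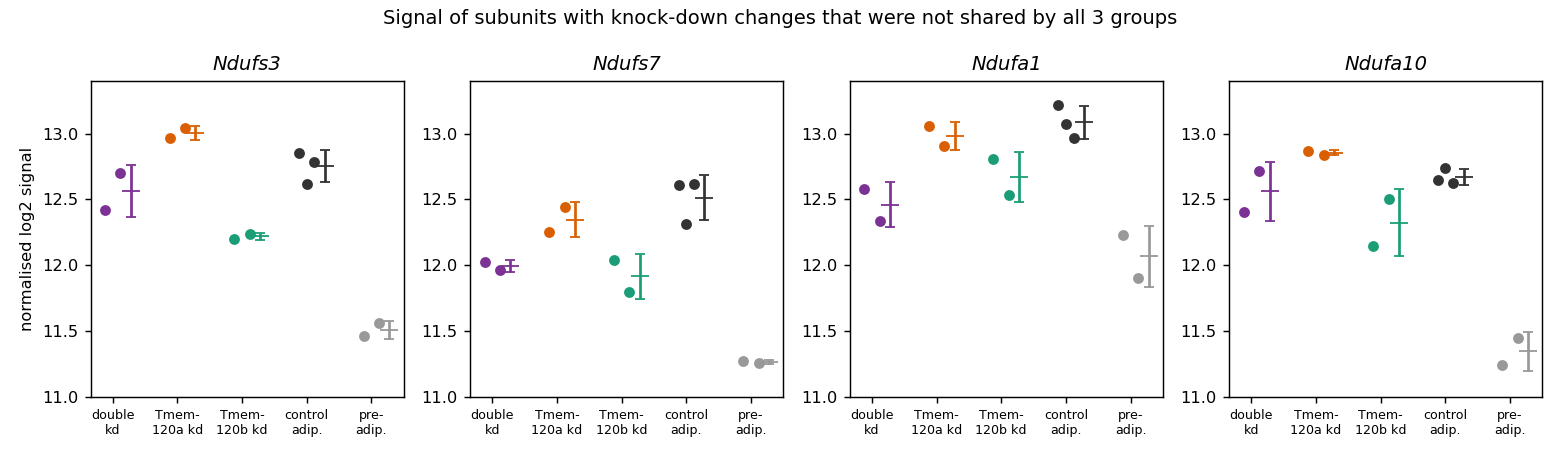
Normalised log2 signal of Ndufs3, Ndufs7, Ndufa1 and Ndufa10 on each array (points), with the mean and SD of each group beside them. Tmem120a knockdown arrays lie at or above the control level for Ndufs3 and Ndufa10, where both Tmem120b arrays are below the controls, and preadipocytes are lowest for all 4 genes.

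The differences between knockdowns were tested directly. Tmem120a against Tmem120b knockdown gave 3 called members of 36 (8.33%), near the 6.42% of all genes called either way. All 3 were higher in the Tmem120a knockdown. These were Ndufs3 (log2 difference 0.79 ± 0.0948 SE, adjusted p = 1.61e-04), Ndufb9 (0.78 ± 0.129, adjusted p = 0.00151) and Ndufa10, a proximal arm subunit with a nucleoside kinase fold (0.53 ± 0.120, adjusted p = 0.0127). Ndufa10 had 12.87 and 12.84 in the Tmem120a knockdown and 12.14 and 12.50 in the Tmem120b knockdown. For Ndufb2 the single knockdowns differed by 0.03, with a 95% interval of -0.21 to 0.27. Only 1 member was called when arrays were shifted to a common median.

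The double knockdown was lower than the Tmem120a knockdown for 4 members and higher for 0, beside 4.87% of all genes called either way. The 4 were Ndufb9 (-0.89 ± 0.129), Ndufb5 (-0.60 ± 0.109), Ndufa1 (-0.52 ± 0.128) and Ndufb4 (-0.51 ± 0.110), with adjusted p of 8.65e-04, 0.00397, 0.0242 and 0.0130. At an unadjusted p under 0.05, 16 members were lower and 0 higher. The share of all genes at this unadjusted limit was not taken here or for the next comparison, so these counts cannot be set beside it. With the median shift 0 were called. Against the Tmem120b knockdown limma called 0 members, beside 0.199% of all genes, although 5 were lower and 1 higher at an unadjusted p under 0.05. For Ndufb9 that difference was -0.11 with a 95% interval of -0.39 to 0.17, and for Ndufb5 -0.38 with an interval of -0.61 to -0.14.

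Additivity was examined as the change in the double knockdown minus the sum of both single changes. It departed from 0 for 4 members, beside 2.48% of all genes, and these were the same distal arm genes. The departure was 1.41 ± 0.174 for Ndufb9, 1.25 ± 0.149 for Ndufb2, 1.08 ± 0.148 for Ndufb5 and 0.93 ± 0.150 for Ndufb4 (SE, adjusted p = 0.00111, 9.12e-04, 0.00207 and 0.00576). Positive values mean that the double knockdown fell less than both single falls added together. For Ndufb4 the summed falls would end below the lowest signal on any array (6.36), so a positive departure was fixed in advance. For Ndufb2 they would end below the background limit of 6.86, where a further fall cannot be read. The targets stood at 45.9% of control in the double against 39.9% in the Tmem120a knockdown for Tmem120a, and at 32.5% in the double against 23.8% in the Tmem120b knockdown for Tmem120b. Neither difference was called (log2 differences of 0.20 and 0.45, adjusted p = 0.329 and 0.0924, limma), and their part in the departure was not tested.

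Set against preadipocytes, the knockdown cells had more members higher than lower. The Tmem120a knockdown had 24 members higher and 2 lower, beside 12.5% and 11.7% of all genes, the Tmem120b knockdown 22 and 4, beside 12.1% and 10.5%, and the double knockdown 18 and 4, beside 12.3% and 10.8%. The members' median log2 changes were 0.70, 0.59 and 0.50. Under cyclic loess normalisation the medians were 0.47, 0.33 and 0.27, and 17, 14 and 14 members were called in either direction. Preadipocytes serve here and in the differentiation comparison, so the counts share those arrays. The genes lower than in preadipocytes were Ndufb2 and Ndufb4 in the Tmem120a knockdown, and Ndufb2, Ndufb4, Ndufb5 and Ndufb9 in the Tmem120b and double knockdowns.

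Ndufb9 shows the order most clearly. Its preadipocyte signals were 9.84 and 9.69, with the Tmem120a knockdown level with them (-0.05 ± 0.129 SE, adjusted p = 0.837). The Tmem120b knockdown was below them, with a log2 change of -0.84 ± 0.129, and the double knockdown had -0.95 ± 0.129 (adjusted p = 1.94e-04 and 6.63e-05). Ndufb4 had 8.16 and 8.01 in preadipocytes and was lower in all 3 knockdowns, with log2 changes of -0.54, -0.80 and -1.04. By contrast Ndufs3 remained higher than in preadipocytes in each, with 1.49, 0.71 and 1.05.

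Other probes shared the call of the brightest more often in differentiation than in the knockdowns. Of the 36 members 13 had another probe above background. In differentiation 7 of these were called higher on the brightest probe, and all 7 were also higher on another. Ndufc2 and Ndufs6 were higher only on another probe, and the dimmest Ndufab1 probe was not called. All probes shared a call in 10 of the 13 genes in differentiation, and in 8, 7 and 3 in the Tmem120a, Tmem120b and double knockdowns. In the Tmem120a, Tmem120b and double knockdowns 5, 6 and 10 of the 13 were not called on the brightest probe but were lower on another. Over the 53 member probes above background, 9, 14 and 18 were lower, from 9, 12 and 16 genes. Of all 17780 probes above background in control adipocytes, 4.89%, 8.18% and 7.99% were lower.

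Ndufa5 was the sharpest case. Its other probe (ILMN_2691460) read 7.47 and 7.57 in the Tmem120a knockdown, 7.21 and 7.27 in the Tmem120b knockdown and 7.28 and 7.06 in the double knockdown, against 9.11, 9.19 and 8.94 in control adipocytes, changes of -1.56, -1.84 and -1.91 (adjusted p = 6.86e-07, 5.03e-08 and 4.89e-08). The brightest probe (ILMN_1216007) read 11.83 and 11.81 in the Tmem120a knockdown, 12.19 and 11.54 in the Tmem120b knockdown and 11.82 and 11.58 in the double knockdown, against 12.02, 11.88 and 12.02 in control adipocytes, with no call. Which transcripts either probe detects was not tested.

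Ndufb10, a distal arm subunit that faces the intermembrane space, behaved alike. Its other probe read 7.12 and 7.25 in the Tmem120a knockdown, 6.97 and 6.84 in the Tmem120b knockdown and 6.97 and 6.97 in the double knockdown, against 8.25, 8.13 and 8.35 in control adipocytes, changes of -1.06, -1.34 and -1.27, while the brightest had 0.25, -0.20 and -0.33 and was not called. The dimmest of 4 probes of Ndufs4, an accessory subunit of the NADH module, read 9.73 and 9.64 in the Tmem120a knockdown, 9.33 and 9.17 in the Tmem120b knockdown and 9.07 and 8.99 in the double knockdown, against 10.54, 10.71 and 10.61 in control adipocytes. Its changes were -0.94, -1.37 and -1.59. On the brightest Ndufs4 probe they were 0.11, -0.06 and 0.03, without a call. The 2 remaining probes lay between, not called in the Tmem120a knockdown but called lower in the Tmem120b and double knockdowns. All 3 other Ndufs4 probes were thus lower in the Tmem120b knockdown (-1.37 to -0.53) and in the double knockdown (-1.59 to -0.81).

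Ndufc2, a proximal arm subunit, had on its other probe 6.88 and 6.79 in the Tmem120a knockdown, 6.89 and 6.85 in the Tmem120b knockdown and 6.81 and 6.83 in the double knockdown, against 7.52, 7.72 and 7.54 in control adipocytes. The changes were -0.75, -0.72 and -0.77, with the Tmem120a and double knockdown means at background, where the probe was at least 1.65-fold and at least 1.66-fold lower, while the brightest probe had 0.17, 0.28 and 0.19. For Ndufab1 the 3 brighter probes were not called in any knockdown, and the dimmest read 7.02 and 7.02 in the Tmem120a knockdown, 6.87 and 6.89 in the Tmem120b knockdown and 6.70 and 6.98 in the double knockdown, against 7.55, 7.63 and 7.49 in control adipocytes. Its changes were -0.54, -0.68 and -0.71, and no knockdown array overlapped the controls. The double knockdown mean was at background, where the probe was at least 1.55-fold lower.

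In 5 more genes the calls on other probes were made in 1 or 2 knockdowns. Ndufv3 was lower in the Tmem120b knockdown on its dimmest probe (-0.69), which read 8.88 and 9.01 in the Tmem120a knockdown, 8.48 and 8.58 in the Tmem120b knockdown and 8.64 and 9.07 in the double knockdown, against 9.32, 9.13 and 9.21 in control adipocytes. Its middle probe was lower in the double knockdown (-0.55), and read 12.04 and 12.05 in the Tmem120a knockdown, 12.21 and 11.86 in the Tmem120b knockdown and 12.14 and 11.64 in the double knockdown, against 12.51, 12.35 and 12.48 in control adipocytes. The others were lower in the double knockdown alone. Ndufa3, a small subunit of the proximal arm, had -0.68 there, and its other probe read 10.86 and 10.64 in the Tmem120a knockdown, 11.49 and 10.68 in the Tmem120b knockdown and 10.83 and 10.46 in the double knockdown, against 11.33, 11.25 and 11.39 in control adipocytes. Ndufc1, the partner of Ndufc2 in the proximal arm, had -0.56, from 11.24 and 11.24 in the Tmem120a knockdown, 11.51 and 11.11 in the Tmem120b knockdown and 11.17 and 10.97 in the double knockdown, against 11.67, 11.50 and 11.70 in control adipocytes. Both belong to the same arm as Ndufa1. Ndufb6, of the distal arm, had -0.52, and its other probe read 8.98 and 9.29 in the Tmem120a knockdown, 9.16 and 8.58 in the Tmem120b knockdown and 8.61 and 8.65 in the double knockdown, against 9.15, 9.00 and 9.30 in control adipocytes. Ndufb8, of the same arm, had -0.52, from 10.05 and 9.87 in the Tmem120a knockdown, 9.14 and 9.11 in the Tmem120b knockdown and 9.12 and 9.06 in the double knockdown, against 9.69, 9.58 and 9.56 in control adipocytes. In the Tmem120a knockdown this Ndufb8 probe stood above the controls, by 0.35 (adjusted p = 0.00588, limma), inside the fold limit.

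**Figure D4:**
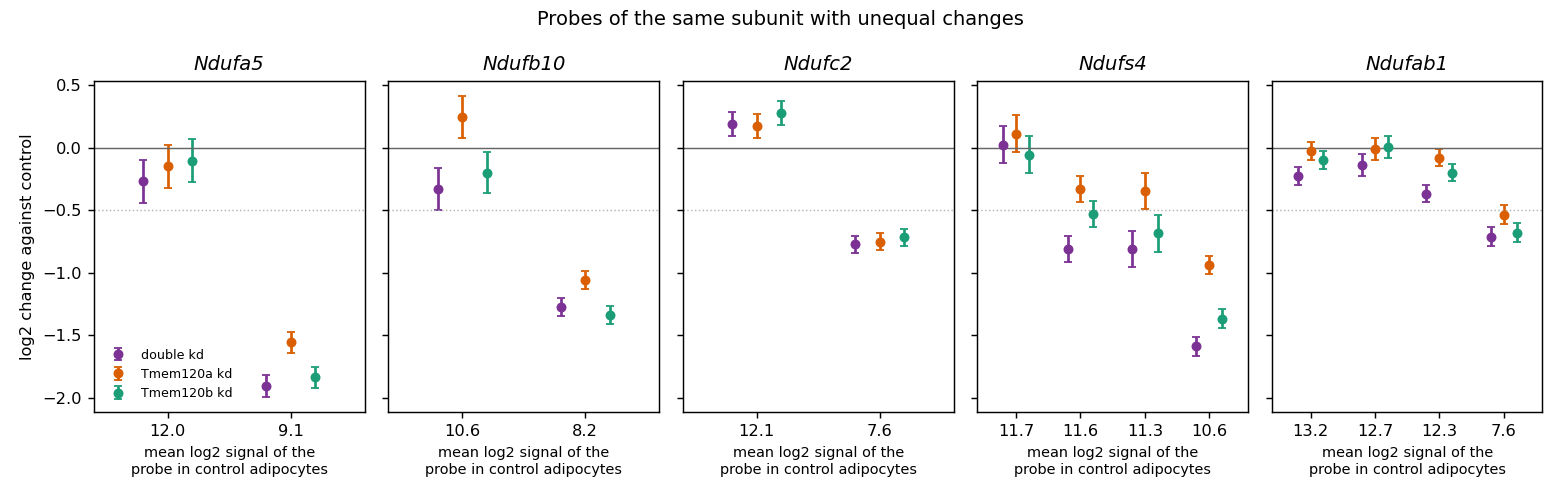
Log2 change against control adipocytes, with its standard error, of every probe of Ndufa5, Ndufb10, Ndufc2, Ndufs4 and Ndufab1, with probes placed by their mean signal in control adipocytes (log2, printed on the axis). The brightest probe of each gene lies between -0.33 and 0.28 in all 3 knockdowns and the dimmest lies below -0.5.

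The difference between probes of a gene was tested within each array, with limma over all 5688 such pairs of 3825 genes, a test chosen after seeing the data. Among 18 pairs from members, the other probe fell further than the brightest in 5, 6 and 6 pairs in the Tmem120a, Tmem120b and double knockdowns. Over all pairs this was so for 5.56%, 8.76% and 8.51%. Pairs of the same gene share its brightest probe and are not independent. Every pair of Ndufs4 was among the 6 in the double knockdown. In differentiation 3 of the 18 member pairs differed in either direction, beside 20.2% of all pairs. The probes of members that fell at least 2-fold numbered 6, 7 and 7, and none had a control signal above 11.23. Of the 25 member probes with a control signal above 12, 0, 2 and 3 were lower, while 5.64%, 12.6% and 12.9% of all probes in that range were. The part of signal level in these counts was not tested.

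The promoters of the 3 genes lower in every knockdown that the RefSeq table covers (GRCm38.p6) are shown because these genes moved together, and that of Ndufs3 because it behaved otherwise. Each line gives the 250 bases before the annotated start, 5′ to 3′ on the strand of the gene, with matches to the searched motifs in capitals.
Ndufb2, chr6:39592315-39592564, plus strand: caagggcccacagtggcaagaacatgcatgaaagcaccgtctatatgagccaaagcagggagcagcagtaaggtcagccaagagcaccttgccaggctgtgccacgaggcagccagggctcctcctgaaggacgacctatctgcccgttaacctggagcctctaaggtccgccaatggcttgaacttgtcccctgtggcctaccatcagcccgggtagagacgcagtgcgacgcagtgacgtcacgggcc
Ndufb4, chr16:37654369-37654618, minus strand: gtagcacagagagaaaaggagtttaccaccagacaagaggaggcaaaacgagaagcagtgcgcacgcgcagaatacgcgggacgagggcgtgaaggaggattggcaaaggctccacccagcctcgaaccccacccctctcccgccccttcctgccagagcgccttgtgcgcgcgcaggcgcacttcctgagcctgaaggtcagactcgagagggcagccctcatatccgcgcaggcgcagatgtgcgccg
Ndufb5, chr3:32736813-32737062, plus strand: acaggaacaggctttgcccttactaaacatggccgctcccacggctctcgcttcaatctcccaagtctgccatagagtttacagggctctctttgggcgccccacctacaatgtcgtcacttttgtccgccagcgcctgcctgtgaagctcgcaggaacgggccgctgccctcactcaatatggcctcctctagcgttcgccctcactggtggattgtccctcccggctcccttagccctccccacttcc
Ndufs3, chr2:90904722-90904971, minus strand: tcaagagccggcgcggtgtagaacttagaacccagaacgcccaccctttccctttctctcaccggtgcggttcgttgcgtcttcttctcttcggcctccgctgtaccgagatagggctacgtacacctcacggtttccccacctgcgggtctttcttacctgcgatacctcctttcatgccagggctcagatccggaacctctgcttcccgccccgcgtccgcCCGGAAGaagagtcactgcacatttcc
Exact matches on both strands were sought for factors known from nuclear genes of mitochondrial proteins. The letters were CGCATGCG for NRF1, CCGGAAG for ETS factors, AAGATGGC for YY1 and TCAAGGTCA for ERR, none of which overlapped another in these windows. Windows ran from 250 bases before to 50 after the start, and 32 members had at least one. NRF1 letters occurred in 2 of 32 members, beside 1.87% of all 32851 windows, ETS letters in 4, beside 8.86%, and ERR letters in 0, beside 0.423%. Ndufb2, Ndufb4 and Ndufb5 held none of the 4 motifs, whereas the Ndufs3 window held the ETS letters. Ndufb9 is named only.

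YY1 letters were found in 7 of 32 members, beside 2.75% of all windows. They are shown with up to 10 bases on either side, the motif in capitals, because all 7 lay 22 to 38 bases after the annotated start and on the strand of the gene.
Ndufa3, chr7:3617385-3617412, plus strand: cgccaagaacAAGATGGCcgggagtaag
Ndufa9, chr6:126849098-126849125, minus strand: attgtgggagAAGATGGCggccgccgtc
Ndufb8, chr19:44555393-44555414, minus strand: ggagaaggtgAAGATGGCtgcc
Ndufc1, chr3:51408916-51408943, minus strand: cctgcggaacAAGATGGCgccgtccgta
Ndufs4, chr13:114388045-114388069, minus strand: tgcctacaggAAGATGGCggcggtc
Ndufs6, chr13:73328433-73328459, minus strand: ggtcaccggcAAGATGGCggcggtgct
Ndufs7, chr10:80249463-80249490, plus strand: ggccgaggccAAGATGGCggcgctggcg
The motif contains ATG, the letters of a start codon, and whether translation begins there was not examined. On brightest probes, Ndufs7 was the only one of these 7 genes called lower in a knockdown, and 5 of the 7 were called higher in differentiation.

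Genes around the complex were described from lists, chosen with earlier results of these data known, naming for each the 2 genes with the largest moderated statistic in the double knockdown. For every list the shares of all genes were 11.9% higher and 11.1% lower in differentiation. In the Tmem120a, Tmem120b and double knockdowns they were 2.32%, 4.04% and 3.96% lower and 0.829%, 3.83% and 3.29% higher. Of 18 assembly factors, 16 of them above background, 7 were higher and 1 lower in differentiation, with a median log2 change of 0.44. In the knockdowns 1, 2 and 2 were lower, and 0 were higher by limma, with 6, 1 and 3 higher at an unadjusted p under 0.05. Ndufaf2, which helps to attach the NADH module, was lower in all 3, with log2 changes of -0.51, -0.65 and -0.87. Timmdc1, an assembly factor of the membrane arm, was lower in the Tmem120b and double knockdowns (-0.58 and -0.66) and had -0.46 in the Tmem120a knockdown without a call. Ndufaf2 was also the factor lower in differentiation (-0.78).

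Subunits of the complex encoded by mitochondrial DNA were read by 5 probes and did not move together. ND4L had log2 signals of 8.20 and 8.05 in the Tmem120a knockdown, 7.70 and 7.50 in the Tmem120b knockdown and 7.73 and 7.98 in the double knockdown, against 10.17, 9.82 and 9.84 in control adipocytes, changes of -1.82, -2.34 and -2.09 (adjusted p = 2.39e-05, 1.04e-06 and 2.90e-06, limma). ND4, which is transcribed with ND4L as one RNA, had changes of 0.43, 0.36 and 0.27 and was not called. ND1 was lower in the double knockdown (-0.51), and ND5 higher (1.05). ND6 was at background in all adipocyte groups. In differentiation ND4L was higher (0.98) and ND5 lower (-0.94).

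The other respiratory complexes were also higher in differentiation for most or many of their subunits, and all but complex III had subunits lower in the knockdowns. Succinate dehydrogenase, complex II, had 3 of 4 subunits higher in differentiation and 1, 2 and 2 lower in the Tmem120a, Tmem120b and double knockdowns. Its membrane anchor Sdhd was lower in all 3 (log2 changes of -1.44, -1.95 and -2.13). Its iron-sulfur subunit Sdhb was lower in the Tmem120b and double knockdowns (-1.20 and -1.13) and had 0.05 in the Tmem120a knockdown without a call. Complex III had 6 of 8 higher in differentiation and 0 of 8 lower in any knockdown by limma, although 1, 6 and 6 were lower at an unadjusted p under 0.05. Its members included Uqcr10 at -0.22, -0.47 and -0.43 and the core protein Uqcrc2 at 0.21, -0.37 and -0.36, of which none was called. The probes of Sdha in complex II and Uqcrfs1 in complex III averaged at background in every group, so no change of either could be read. Complex IV, cytochrome c oxidase, had 8 of 8 higher, then 3, 4 and 5 of 8 lower, led by Cox7b (-1.25, -1.20 and -1.70) and Cox7a2 (-0.53, -0.79 and -1.17). The list of ATP synthase, complex V, had 8 of 14 genes higher and 1 lower, then 4, 3 and 4 lower, with 1 higher in the Tmem120b knockdown. The gene lower in differentiation (-0.70) and higher in the Tmem120b knockdown (0.60) was Atpif1, which encodes an inhibitor of the enzyme and not a subunit. The alpha subunit of ATP synthase, Atp5a1, part of the catalytic head, was lower in all 3 (-1.68, -2.53 and -2.50), as was its stalk subunit Atp5e (-1.12, -1.04 and -1.26).

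Regulators of mitochondrial biogenesis were read from 8 genes. Ppargc1a and Ppargc1b, the PGC-1 coactivators of respiratory genes, were higher in differentiation by 2.03 and 2.96. They were lower in the Tmem120b knockdown (-0.63 and -0.61) and in the double knockdown (-0.98 and -0.87), while in the Tmem120a knockdown they had -0.42 and -0.15 and were not called. No other regulator of the list was called in a knockdown against control adipocytes.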

How the data were processed

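Total RNA was labelled and hybridised to Illumina MouseWG-6 BeadChips. The authors deposited log2 signals, quantile normalised between arrays with limma (version not given in the sources used here), and a second file of log2 values without normalisation. No source used here says how bead values were summarised or background treated. All 45281 probes were analysed, and 0 columns were left unmapped. Gene symbols came from a platform probe table and not from the deposited files: 34885 probes had 1 symbol, 18 several and 10378 none. Each gene was read from its brightest probe by mean over the 11 arrays. The members and gene lists were chosen with earlier results of these data known.

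Group means were fitted over all 11 arrays with limma 3.58.1 in R 4.3.3 (lmFit, contrasts and eBayes, two-sided), and p-values were adjusted by Benjamini-Hochberg over all probes. Calls needed an adjusted p of at most 0.05 and a log2 change of at least 0.5. Shares of all genes were taken only for these calls in this fit, and not at an unadjusted p or in the alternatives. The fit had 6 residual and 6.15 prior degrees of freedom, and the number of arrays limits the precision. Background was set at 6.86, the mode of signal (6.65) plus 3 times its spread of 0.0696. Named genes were the 4 shared falls, every member called in a knockdown, the 3 largest and 3 smallest changes in differentiation, members whose probes differed in call, and the top 2 genes of each list. The procedure was tested on simulated data. Alternatives covered normalisation, probe choice, a signal filter, the model, the fold limit, the replicate block and each array left out in turn. The authors' sample labels gave the groups.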

Additional observations from a re-analysis of the deposited data

Results flagged for a closer look

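Several members differed between knockdown groups by a direct limma test, and the values are given without explanation. Tmem120a against Tmem120b, double against Tmem120a and additivity gave 3, 4 and 4 called members of 36. All genes gave 6.42%, 4.87% and 2.48%, so the first count was near its share. Tmem120a minus Tmem120b knockdown was 0.79 for Ndufs3, 0.78 for Ndufb9 and 0.53 for Ndufa10 on the log2 scale, with both arrays of the Tmem120a knockdown above both of the Tmem120b knockdown for each. Double minus Tmem120a knockdown was -0.89 for Ndufb9, -0.60 for Ndufb5, -0.52 for Ndufa1 and -0.51 for Ndufb4. The double knockdown departed from the sum of the single changes by 1.41 for Ndufb9, 1.25 for Ndufb2, 1.08 for Ndufb5 and 0.93 for Ndufb4. The summed falls of Ndufb4 would end below the lowest signal of any array, and those of Ndufb2 below background, so neither could be read in full.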

How the results depend on the processing

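The falls of Ndufb2, Ndufb4, Ndufb5 and Ndufb9 in each knockdown kept direction and call in every alternative except the second brightest probe, which only Ndufb2 has, where its log2 changes were 0.0936, 0.0667 and 0.0410 at background in the Tmem120a, Tmem120b and double knockdowns. With a median shift only, the members' medians were -0.46, -0.51 and -0.46 in these knockdowns and 1.18 in differentiation, 11, 16 and 11 members were lower, 1 differed between Tmem120a and Tmem120b knockdowns and 0 between double and Tmem120a knockdowns. These lower members contained all 4, 6 and 6 reported ones. The medians of all genes under this shift were -0.08, -0.03 and -0.02 in the knockdowns and 0.01 in differentiation. On the second brightest probe the medians were -0.27, -0.30, -0.54 and 0.70, 9 members were higher in differentiation, 7, 7 and 5 were called against preadipocytes, and 1 differed in each of these comparisons between knockdowns. Cyclic loess gave a differentiation median of 0.68 and 17, 14 and 14 calls against preadipocytes. The mean of all probes gave a double knockdown median of -0.30. With no fold limit, 11 members were lower in the Tmem120b and 11 in the double knockdown, and 6 differed between Tmem120a and Tmem120b knockdowns. The cause of these shifts was not tested, other than that fewer genes have a second probe.

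Leaving out each array in turn, the Tmem120b median ran from -0.34 (without replicate 1 of that group) to -0.0662 (without replicate 2), and the differentiation median from 0.80 to 0.92. A group left with 1 array was assumed to vary like the others. Replicate numbers were not taken to pair the arrays. Deviations of same-numbered arrays correlated at -0.086 to 0.132 over 20 pairs, some of them repeats, as 2 arrays of a group deviate equally. Over probes above background the range was -0.14 to 0.214, and 7 of 11 arrays correlated best with their own number. Whether a number marks a shared culture or day is not given. With the replicate block 5, 6 and 5 members were lower in the Tmem120a, Tmem120b and double knockdowns and 27 higher in differentiation, and Ndufs7 lost its double knockdown call at -0.47. Genes near background, such as Ndufb4 in the double knockdown, allow only a bounded fall.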
